A study of Mus musculus with 6 samples.

Results

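The proteasome genes described here are 46 of the 19938 mouse genes that had a probe set of their own on the array. They were found by symbol, as Psm followed by a letter from a to g and a number. Psmb8 and Psmb9 were left out of the set, and their values are given with the genes around the proteasome. The symbols matched 52 probe sets, and where a gene had several, as 5 genes did, the probe set was chosen by the highest mean over the 6 arrays. These means were the only measured values that the choice used, and they are given as levels without a test.

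The RNA came from N2A cells, a mouse neuroblastoma line used as a model of neuronal differentiation. Control cells (3 samples) were transfected with a non-targeting vector, and Dali knockdown cells (3 samples) with a construct expressing a short hairpin RNA (shRNA) against Dali, a long non-coding RNA transcribed beside the transcription factor gene Pou3f3. Both groups were given 1.5 ug of shRNA construct with a lipid reagent, so that plasmid and transfection were common to them, and RNA was collected 2.5 days later. Of each sample 200 ng RNA was labelled for an Affymetrix Mouse Gene array. Values are log2 RMA values, in which the short probes along a transcript are combined into a single number per probe set, and differences are knockdown minus control on that log2 scale. Each group rests on a single construct in a single cell line, and Dali itself was not analysed here, so the depth of its depletion in these samples is not given. The samples are named biological replicates, but the cultures or days behind them are not given, so the p-values reflect how far these samples differ among themselves, which may be technical.

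The proteasome is the barrel-shaped protease that degrades proteins tagged with ubiquitin in the cytosol and nucleus. Its core particle is a stack of alpha and beta rings, with the cutting sites on 3 of the beta subunits facing the inner chamber. A regulatory particle sits on the end of the barrel. Its base holds a ring of 6 ATPases that unfold the substrate and thread it into the core, and its lid holds the enzyme that removes the ubiquitin chain. Dedicated chaperones assemble core and base separately. In mammalian cells the subunit genes are transcribed together when proteasome activity falls short, through the factor NFE2L1, and neurons rely on the particle for synaptic protein turnover.

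Pearson correlations between arrays lay between 0.990 and 0.997, and the first principal component (47.6% of the variance) did not separate the groups. Its scores were -12.9, -22.6 and 10.4 in control and 12.6, -11.0 and 23.3 in knockdown replicates 1, 2 and 3. Within each replicate number the knockdown array had the higher score. Of 14 markers of N2A cells 12 were measured. Stmn2, Chga and Hand2 lay between 12.1 and 13.5 in the group means, whereas the neurofilament genes Nefl and Nefm lay near the low end at 6.22 and 5.92 in control cells. The summed log2 value of these 12 markers ran from 125.6 to 126.5 in control and from 124.5 to 125.3 in knockdown cells, so that the groups did not overlap. How often sums of other gene lists separate was not computed. The test described below called 0 of the 12, but its filter had removed Hand2, Gata3, Stmn2, Nefl, Nefm and Chga. Limma called 0.367% of all probe sets tested higher and 0.769% lower. Without the filter the lowest limma adjusted p of the 12 was 0.49 (Phox2a). Markers of fibroblasts (6 of 6 measured), macrophages (6 of 6), endothelium (5 of 5) and glia (5 of 6) had group means between 5.02 and 8.72. Their summed values overlapped between the groups, with 44.7 to 45.7 in control and 44.4 to 45.6 in knockdown cells for the fibroblast list, 38.3 to 39.1 and 38.5 to 39.3 for macrophages, 36.7 to 37.8 and 36.8 to 37.6 for endothelium, and 36.5 to 37.3 and 36.4 to 37.2 for glia. The part of these shifts in the proteasome values was not tested. In RNA from whole cultures, fewer cells that express a gene and less RNA per cell cannot be told apart.

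No proteasome gene passed the limma test for a difference between Dali knockdown and control cells, and the differences were small. A call required both an adjusted p (Benjamini-Hochberg) under 0.1 and a group difference of 1.3-fold or more (0.38 on the log2 scale). A filter on variance kept 11 of the 46 genes for this fit, and of these 0 were called higher and 0 lower. Limma called 0.367% of all probe sets tested higher and 0.769% lower, so that 0 of 11 is near these shares. Without the filter 0 of the 46 were called, and no member difference reached 1.3-fold. When replicate number entered the fit as a block, limma called 2.77% of all probe sets higher and 4.89% lower, and again 0 of the 11. The block leaves the differences unchanged, so with the fold required it could call no member. The filter kept 23.9% of the members against 51.1% of all genes. For the remaining 35 the adjusted p was read from the fit without the filter. That fit also gave the SE, interval and unadjusted p of all 46. At an unadjusted p under 0.05, 6 members were higher (13.0% against 5.33% of all genes) and 1 was lower (2.17% against 5.8%).

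The arrays bounded most of these differences closely. The 95% interval of the difference lay within 1.3-fold on both sides for 36 of the 46 genes (78.3%), against 64.9% of all genes. The median spread between replicates within a group was 0.08 (SD, log2) for the members and 0.13 for all genes. Over the members the widest interval bounds were -25.6% for Psmd8 and 44.3% for Psmd6. Members differed from -0.23 (Psmd8) to 0.26 (Psmc1), with a median of 0.05 beside 0.02 over all genes. In 33 of the 46 (71.7%) the knockdown mean was the higher, as it was for 55.0% of all genes. Centring each array on its median turned these into 38 of 46 and 64.0%. All 3 knockdown arrays lay above all 3 control arrays in 8 members (17.4%, against 8.47% of all genes), and below them in 1 (2.17%, against 7.11%). After centring, 10 members lay above, where 11.7% of all genes did.

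**Figure D1:**
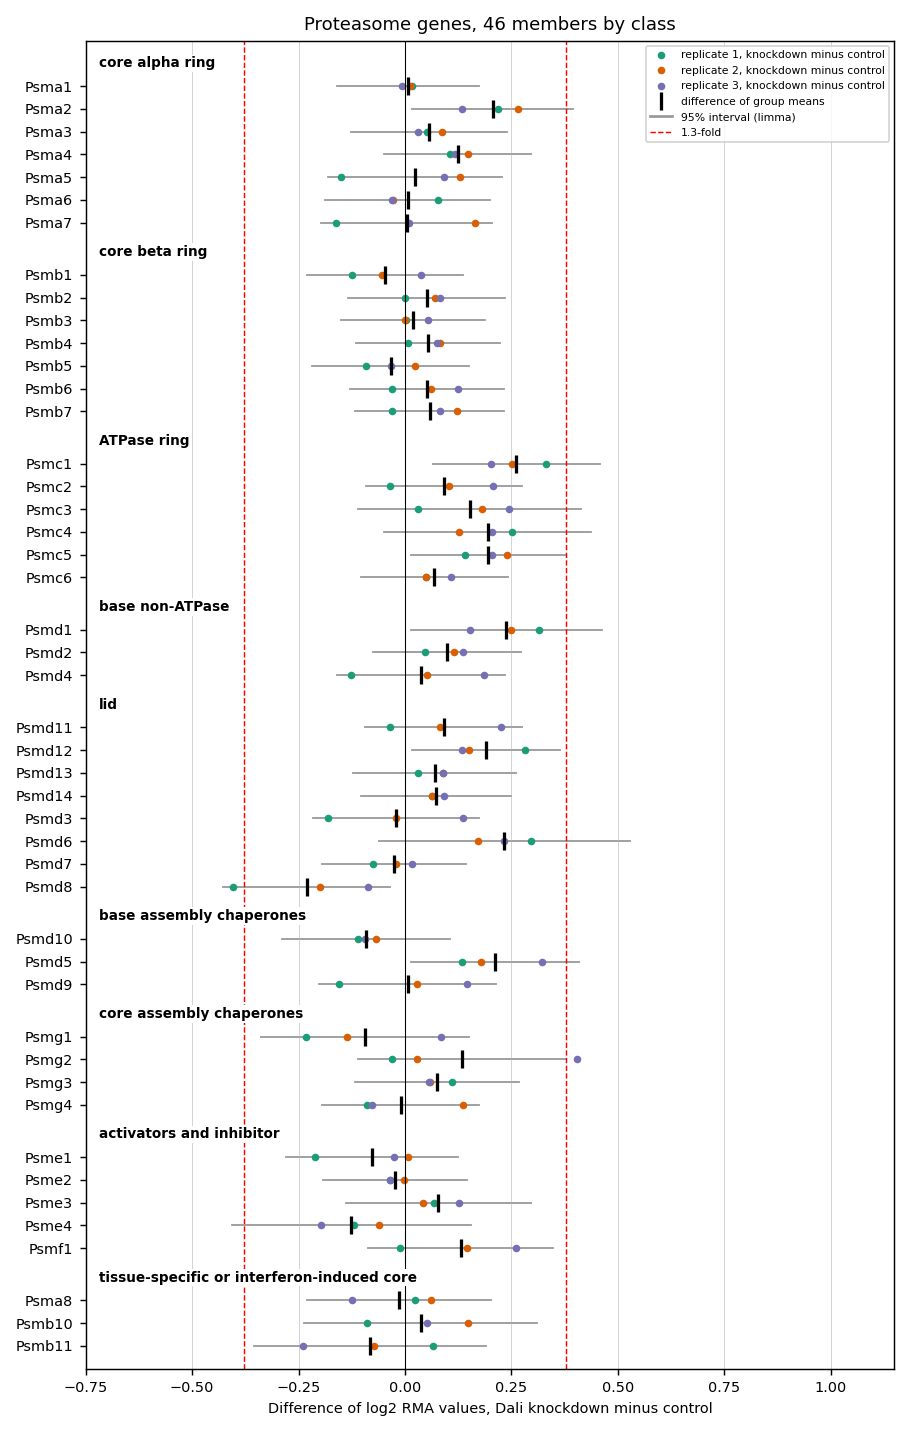
Difference between Dali knockdown and control cells for each of the 46 proteasome genes, by class, on the log2 scale. Points are the differences within replicate numbers 1, 2 and 3, black ticks the difference of the group means, grey lines its 95% limma interval and red dashed lines a fold of 1.3. All 6 ATPase ring genes lie right of 0, from 0.07 to 0.26, while the genes of the core beta ring lie between -0.05 and 0.06.

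Among the structural parts of the particle the ATPase ring stood highest and the core nearest to 0. The median difference was 0.17 over the 6 ATPase genes, 0.07 over the 8 lid genes and 0.04 over the 14 core genes. In pairs of arrays with the same replicate number, the ring median was 0.10, 0.15 and 0.21 for numbers 1, 2 and 3, the lid median 0.00, 0.07 and 0.11, and the core median 0.00, 0.08 and 0.06. Over all genes those medians were 0.05, 0.00 and -0.02. All of these are descriptions, since the genes of a class share the same 6 arrays. Leaving out single arrays moved these medians. Without knockdown replicate 3 they were 0.10 for the ring, 0.04 for the lid and 0.02 for the core, and without control replicate 2 they were 0.12, 0.03 and 0.01. Without knockdown replicate 1 the core median was 0.06. Knockdown replicate 3 had the highest class mean for the ring, the core and the lid alike.

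The class contrast can be read array by array, after each gene is set to its deviation from its own 6-array mean. The ring mean minus the core mean was -0.05, -0.08 and -0.05 in control and 0.09, 0.00 and 0.09 in knockdown replicates 1, 2 and 3. The groups did not overlap, and the means were -0.06 ± 0.02 and 0.06 ± 0.05 (SD, n = 3). Setting each gene to its own 6-array mean makes these means equal and opposite, so they hold a single difference of 0.12. How often contrasts of other gene classes separate the arrays was not computed. Ring minus lid ran from -0.09 to -0.03 in control and from 0.03 to 0.08 in knockdown arrays, again without overlap. For lid minus core the groups overlapped, and their means differed by 0.01. A contrast between classes on the same array is unaffected by a shift shared by all genes. No test was made of these contrasts, because the classes were compared with results for these genes already known.

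**Figure D2:**
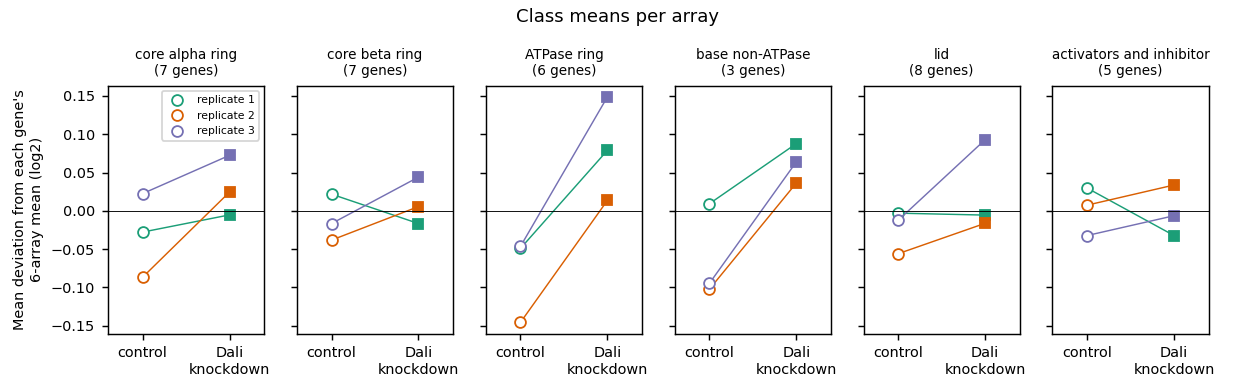
Mean deviation of each class from the 6-array mean of its genes, in log2 units, for control (open circles) and Dali knockdown (filled squares) arrays, with lines joining arrays of the same replicate number. In the ATPase ring panel the control arrays lie between -0.15 and -0.05 and the knockdown arrays between 0.01 and 0.15. The base non-ATPase panel (3 genes) also shows no overlap, with -0.10 to 0.01 in control and 0.04 to 0.09 in knockdown arrays. In the core alpha ring, core beta ring, lid and activator panels the groups overlap.

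The ATPase ring is the motor of the particle. Psmc1, which encodes one of its 6 ATPases, had the largest positive difference of all members. Its log2 value was 11.41, 11.30 and 11.42 in control and 11.74, 11.55 and 11.62 in knockdown replicates 1, 2 and 3. Each knockdown array lay above each control array. The difference was 0.26 (SE 0.09, 1.20-fold, limma adjusted p = 0.43). With the replicate block the adjusted p was 0.068, at the same fold below 1.3, where 9.34% of all probe sets were higher at an adjusted p under 0.1 whatever their fold. A second probe set for Psmc1 also differed by 0.26, with each knockdown array above each control array.

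Psmc5 was the other ATPase gene whose groups did not overlap (33.3% of the ring, against 8.47% of all genes with knockdown above). It stood at 10.26, 10.18 and 10.31 in control and at 10.40, 10.42 and 10.51 in knockdown cells. Its mean was higher by 0.20 (SE 0.08, limma adjusted p without the filter = 0.43). Psmc4 had 11.49, 11.43 and 11.66 in control and 11.74, 11.56 and 11.87 in knockdown cells, higher within each replicate number (0.25, 0.13 and 0.21) but overlapping between the groups because replicate 3 was high in both. Its difference was 0.19 (SE 0.11, adjusted p = 0.61), and 0.12 without knockdown replicate 3. Psmc3 was likewise higher in each of the 3 pairs and had its highest values in replicate 3 of both groups, at 10.40 and 10.65, with a difference of 0.15 (SE 0.11) that was 0.05 without knockdown replicate 3 and 0.07 without control replicate 2. The smallest differences of the ring were those of Psmc2 (0.09, 95% interval -0.09 to 0.28), which was lower in knockdown replicate 1 than in its control, and Psmc6 (0.07, -0.10 to 0.24), which was higher in each pair. In all, 5 of the 6 ATPase genes were higher in each of the 3 pairs, as were 20 of all 46 members. The share over all genes was not computed. For 3 of the 6 (50.0%) the interval lay within 1.3-fold, against 64.9% of all genes.

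The base of the regulatory particle also holds the scaffold proteins PSMD1 and PSMD2 and the ubiquitin receptor PSMD4. Psmd1 measured 12.87, 12.69 and 12.84 in control and 13.19, 12.93 and 12.99 in knockdown cells. The groups did not overlap, and the difference was 0.24 (SE 0.10, limma adjusted p without the filter = 0.43). Psmd2 differed by 0.10 (95% interval -0.07 to 0.27) on the chosen probe set, where the groups did not overlap, and by 0.08 on another, where they did. Psmd4 had the smallest difference of the 3, 0.04 (-0.16 to 0.23), with a lower value in knockdown replicate 1 and a higher one in replicate 3 than in their controls. The median of the 3 genes was 0.10.

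The lid genes differed in both directions. Psmd8, a structural lid subunit, was the only member whose knockdown arrays all lay below its control arrays. Its values were 11.85, 11.78 and 11.74 in control and 11.44, 11.58 and 11.65 in knockdown replicates 1, 2 and 3, and the gap was widest in replicate 1. The difference was -0.23 (SE 0.09, 1.17-fold lower, limma adjusted p = 0.50). Psmd6, another lid subunit, had nearly the same difference with the opposite sign. It measured 11.25, 11.30 and 11.60 in control and 11.54, 11.47 and 11.83 in knockdown cells, so that control replicate 3 exceeded knockdown replicates 1 and 2. The difference was 0.23 (SE 0.13, adjusted p = 0.55), and with the replicate block, which takes up the high values of both replicates 3, the adjusted p was 0.090. With the block 9.34% of all probe sets were higher at an adjusted p under 0.1 whatever their fold. Without knockdown replicate 3 the difference was 0.13.

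Of the remaining lid genes, Psmd12 had the tightest control values. They were 11.65, 11.68 and 11.68 against 11.93, 11.83 and 11.82 in knockdown cells, without overlap. Its difference was 0.19 (SE 0.08, limma adjusted p = 0.58). Psmd14, the metalloprotease that releases the ubiquitin chain, differed by 0.07 (95% interval -0.10 to 0.25) and was higher in each pair. Psmd11, a scaffold subunit that contacts the base and core, differed by 0.09 (-0.09 to 0.28), and Psmd13 by 0.07. Psmd3 and Psmd7, the partner of PSMD14, differed by -0.02 and -0.03, and with centred arrays by 0.01 and 0.00. After centring, 7 rather than 5 of the 8 lid genes had the higher mean in knockdown cells. Over all genes that share was 64.0% rather than 55.0%.

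**Figure D3:**
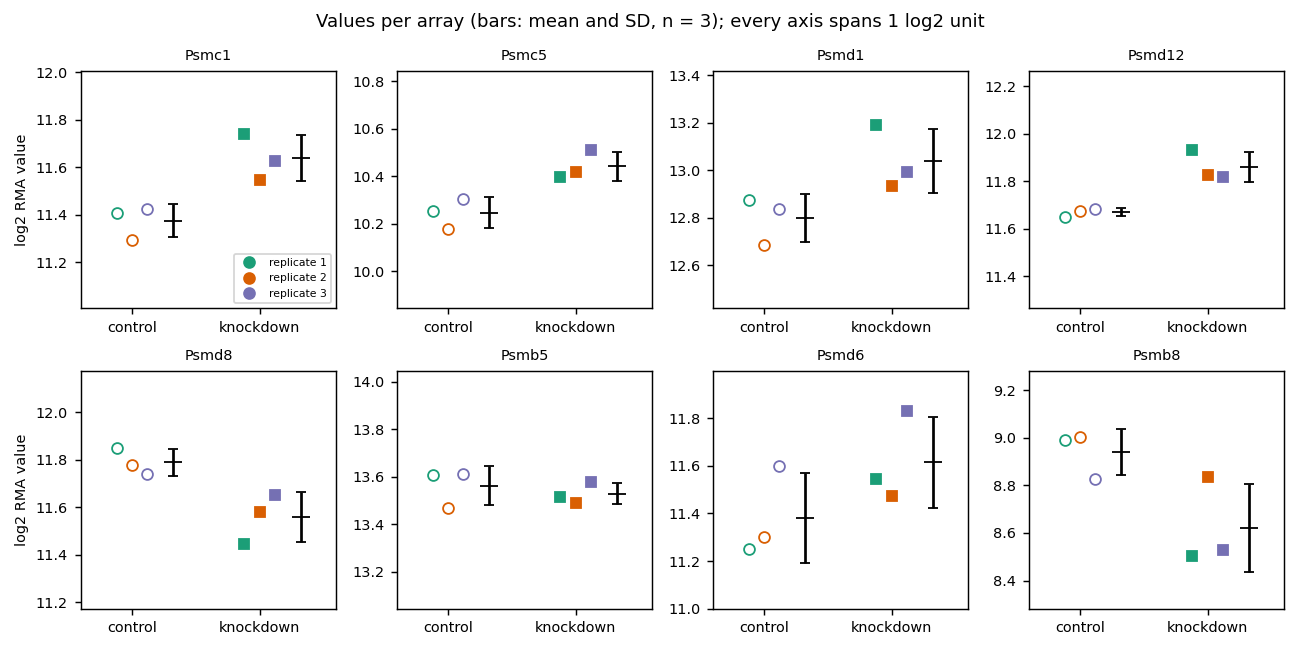
Log2 RMA value of 8 genes on each array, with control as open circles and Dali knockdown as filled squares, coloured by replicate number, and bars for mean and SD (n = 3). Every axis spans 1 log2 unit but starts at a different level. The groups do not overlap for Psmc1, Psmc5, Psmd1 and Psmd12, with knockdown above control, nor for Psmd8, with knockdown below, and they overlap for Psmb5, Psmd6 and Psmb8.

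Of core, ATPase ring and lid, the core had the median difference nearest to 0. The 3 catalytic subunits of the beta ring lie in PSMB5 (chymotrypsin-like), PSMB6 (caspase-like) and PSMB7 (trypsin-like). Psmb5 measured 13.61, 13.47 and 13.61 in control and 13.52, 13.49 and 13.58 in knockdown cells, with knockdown values inside the control range. The difference was -0.03 (95% interval -0.22 to 0.15). Psmb6 stood at 12.04, 12.09 and 12.02 in control and at 12.01, 12.15 and 12.15 in knockdown cells, which overlapped. Its difference was 0.05 (-0.13 to 0.23). Psmb7 differed by 0.06 (-0.12 to 0.23), the highest of the beta ring, and Psmb1, a structural beta subunit, by -0.05 (-0.23 to 0.14), the lowest. For all 7 beta genes the interval lay within 1.3-fold, as for 64.9% of all genes, with bounds of -14.8% and 17.7%.

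The alpha ring closes the barrel and gates entry to it. In all 7 genes the knockdown mean was the higher, as it was for 55.0% of all genes. The median difference was 0.02, beside 0.02 over all genes. For 4 of the 7, Psma1, Psma5, Psma6 and Psma7, the sign turned when single arrays were left out. Psma2 stood apart from the rest of the ring. It measured 11.21, 11.15 and 11.34 in control and 11.43, 11.42 and 11.48 in knockdown cells, without overlap. The difference was 0.21 (SE 0.08, limma adjusted p = 0.55). Psma4 also showed no overlap, from 11.13 to 11.22 in control and from 11.26 to 11.34 in knockdown cells, and differed by 0.12 (95% interval -0.05 to 0.30). Psma7 had the smallest difference, 0.00 (-0.20 to 0.21). The 3 probe sets of Psma3 differed by 0.04, 0.06 and 0.08.

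The 250 bases before the start sites of 4 of these genes are shown so that the genes at the ends of the range can be set beside catalytic ones. Psmc1 and Psmd8 had the highest and the lowest difference, and Psmb5 and Psmb6 encode catalytic subunits whose windows hold the antioxidant response element core TGACNNNGC, the kind of element through which NFE2L1 acts. The sequences are those of RefSeq on GRCm38.p6, at chr12:100109952-100110201 (plus strand), chr7:29180674-29180923 (minus strand), chr14:54617996-54618245 (minus strand) and chr11:70525107-70525356 (plus strand), written 5′ to 3′ along the gene. Capitals mark matches, on either strand, to TGACNNNGC, to the NF-Y box CCAAT or to the nuclear respiratory factor 1 core CGCATGCG.
Psmc1: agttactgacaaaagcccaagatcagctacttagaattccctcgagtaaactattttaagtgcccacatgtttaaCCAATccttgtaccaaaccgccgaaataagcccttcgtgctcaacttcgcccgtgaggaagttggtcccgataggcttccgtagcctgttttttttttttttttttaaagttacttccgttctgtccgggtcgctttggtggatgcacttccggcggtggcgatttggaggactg
Psmd8: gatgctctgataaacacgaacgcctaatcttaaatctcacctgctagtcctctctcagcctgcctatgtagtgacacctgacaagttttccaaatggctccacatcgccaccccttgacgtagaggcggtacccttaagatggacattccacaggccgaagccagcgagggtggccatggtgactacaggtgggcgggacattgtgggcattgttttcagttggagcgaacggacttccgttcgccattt
Psmb5: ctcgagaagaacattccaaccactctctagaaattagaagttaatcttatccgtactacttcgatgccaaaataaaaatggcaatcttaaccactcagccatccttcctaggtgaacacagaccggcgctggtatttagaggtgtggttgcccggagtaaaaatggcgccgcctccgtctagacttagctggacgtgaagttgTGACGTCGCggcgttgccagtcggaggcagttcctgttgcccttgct
Psmb6: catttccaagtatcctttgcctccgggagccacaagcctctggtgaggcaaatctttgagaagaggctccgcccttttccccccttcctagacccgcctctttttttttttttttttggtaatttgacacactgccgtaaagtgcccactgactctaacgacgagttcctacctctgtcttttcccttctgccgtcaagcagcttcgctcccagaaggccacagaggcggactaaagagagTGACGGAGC

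Windows were matched by symbol for 38 of the 46 genes. TGACNNNGC was in 5 of the 38 (13.2%), against 11.5% of 27025 genes with a window of the same length. It began 47 bases before the start site in Psmb5, 9 in Psmb6, 31 in Psmd9, 227 in Psmc6 and 247 in Psmd12. CCAAT was in 13 (34.2%, against 37.5%), among them Psmc1, and CGCATGCG in 1, Psma2 (2.63%, against 1.75%), and none of the matches in the members overlapped another. The window of Psmd8 held none of the 3. Of the 5 genes with TGACNNNGC, Psmd12 had separate groups (0.19), while Psmb5 (-0.03), Psmb6 (0.05), Psmc6 (0.07) and Psmd9 (0.01) did not.

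Assembly of the particle depends on chaperones that are absent from the mature form. Psmd5, a chaperone of the base, measured 10.88, 10.99 and 10.84 in control and 11.01, 11.17 and 11.17 in knockdown cells. The groups did not overlap, and the difference was 0.21 (SE 0.09, limma adjusted p = 0.54). Psmd10, which binds an ATPase during base assembly, differed by -0.09 and was lower in each pair. The 4 core chaperones did not share a direction. Psmg1 differed by -0.09 (95% interval -0.34 to 0.15) and its partner Psmg2 by 0.13 (-0.11 to 0.38), and in both the 3 knockdown arrays were spread over a wider range (SD 0.20 and 0.19) than the controls (0.04 and 0.06). Without knockdown replicate 1 the difference of Psmg1 was 0.00, and without knockdown replicate 3 that of Psmg2 was 0.03. Psmg3 differed by 0.08 and Psmg4 by -0.01, the latter turning to 0.02 with centred arrays.

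Alternative caps of the core and its inhibitor varied around 0. Psme1 and Psme2, which form the interferon-induced activator, differed by -0.08 and -0.02, the latter turning to 0.01 with centred arrays. Psme3, the nuclear activator, differed by 0.08 (95% interval -0.14 to 0.30), and by 0.00 without knockdown replicate 3. Psme4, which encodes the large activator PA200, measured 12.21, 12.12 and 11.93 in control and 12.09, 12.06 and 11.73 in knockdown cells. It was lower within each replicate number, while the groups overlapped, and the difference was -0.13 (SE 0.12, limma adjusted p = 0.82), but -0.01 without knockdown replicate 3 and -0.21 without control replicate 3. Psmf1, an inhibitor of the core, differed by 0.13 (-0.09 to 0.35), mostly in replicates 2 and 3, and by 0.06 without knockdown replicate 3. The testis subunit Psma8 and the thymus subunit Psmb11 lay low on the array, at 6.27 and 7.07 in control cells, and differed by -0.01 (0.02 with centred arrays) and -0.08.

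None of the 3 inducible catalytic subunits, which replace the constitutive ones in the immunoproteasome, passed the test. Psmb8 measured 8.99, 9.00 and 8.83 in control and 8.50, 8.83 and 8.53 in knockdown cells. The groups overlapped slightly, since control replicate 3 lay just below knockdown replicate 2. The difference was -0.32 (SE 0.11, 1.25-fold lower, limma adjusted p = 0.36), and with the replicate block the adjusted p was 0.057 at a fold still below 1.3. With the block limma called 4.89% of all probe sets lower even with the fold required. The share that was lower at an adjusted p under 0.1 whatever the fold was not computed. Psmb9 differed by -0.16 (95% interval -0.38 to 0.07), with 0.00 in replicate 2 and a difference of -0.08 without knockdown replicate 3, and Psmb10, the third inducible subunit, by 0.04 (-0.24 to 0.31).

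Of 47 further genes of the pathway, Psmb8 and Psmb9 included, 38 were measured with a probe set of their own. The variance filter kept 16 of the 38, and 0 of these were called, with or without the replicate block. Without the filter 0 of the 38 were called. Their differences ran from -0.36 to 0.23, so with 1.3-fold required none of these fits could call one. Among the 38 genes 23 (60.5%) had the higher mean in knockdown cells, against 55.0% of all genes, and the median difference was 0.03 beside 0.02. At an unadjusted p under 0.05 limma gave 1 higher gene (2.63%, against 5.33% of all genes) and 4 lower genes (10.5%, against 5.8%). All knockdown arrays lay above all control arrays in 3 of the 38, Pomp, Usp14 and Akirin2. They lay below in 3, Zfand2a, Syvn1 and Mafk. Over all genes these shares were 8.47% and 7.11%. Pomp, the maturation factor of the core, measured 10.50, 10.41 and 10.44 in control and 10.63, 10.54 and 10.70 in knockdown cells, without overlap. Its difference was 0.17 (SE 0.08, adjusted p = 0.63). Usp14, a deubiquitinase bound to the particle, differed by 0.16 (SE 0.08, adjusted p = 0.69), also without overlap, while Uchl5, another bound deubiquitinase, differed by 0.08 (95% interval -0.14 to 0.31) and the small lid subunit Sem1 by -0.10 (-0.30 to 0.10). The ubiquitin receptor Adrm1 was not analysed here.

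The NFE2L1 route itself showed no shared direction, with 6 of its 12 genes higher (50.0%, against 55.0% of all genes) and a median of -0.03. Nfe2l1 measured 11.86, 12.05 and 11.84 in control and 11.87, 12.06 and 11.91 in knockdown cells, nearly the same value in each pair. Its difference was 0.02 (95% interval -0.19 to 0.24). The genes with an unadjusted p under 0.05 are named after their values were seen. Besides Psmb8, these were the proteasome import factor Akirin2 (0.22), the stress-induced proteasome binder Zfand2a (-0.29), the ubiquitin ligase of the endoplasmic reticulum Syvn1 (-0.36) and Maff, a small MAF partner of NFE2L factors (-0.34). Syvn1 was lower by 0.37, 0.32 and 0.38 in replicates 1, 2 and 3. Its adjusted p was 0.30 with limma and 0.028 with the replicate block, and at 1.28-fold lower it stayed under the fold required. The block fit called 4.89% of all probe sets lower at 1.3-fold or more, and the share lower whatever the fold was not computed. In the list for ubiquitin and its activation, 7 of 10 measured genes had the higher mean (70.0%, against 55.0% of all genes). Differences ran from -0.05 to 0.17.

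**Figure D4:**
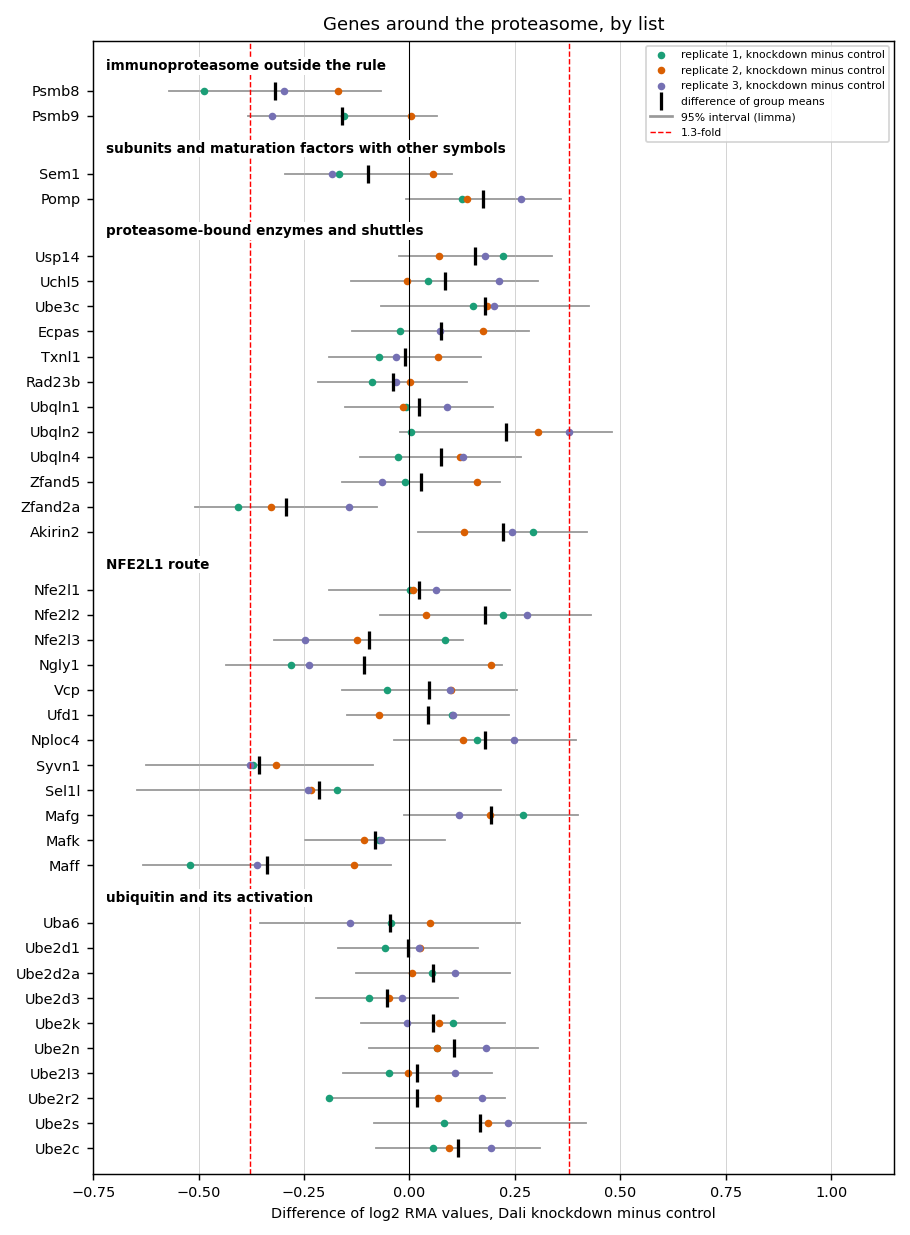
Difference between Dali knockdown and control cells for 38 genes around the proteasome, by list, on the log2 scale, with points for replicate numbers 1, 2 and 3, ticks for the difference of the means, grey lines for its 95% limma interval and red dashed lines for a fold of 1.3. Differences run from -0.36 (Syvn1) to 0.23 (Ubqln2), and 0 genes were called.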

How the data were processed

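N2A cells given a non-targeting vector or a Dali knockdown construct were profiled on 3 arrays each. The authors used RMA (background correction, quantile normalisation and summary per probe set), and deposited log2 values between 2.76 and 14.8. Versions of the authors' tools are not given in the sources used here. Quantile normalisation gives the arrays one overall distribution, so that a shift shared by most genes cannot be seen. Of 35556 rows, an annotation table gave 21789 a single gene symbol and 1621 more than 1. The 12146 rows it does not list were left out, as were rows with several symbols for naming. All 46 member symbols were found unchanged in a RefSeq gene table of GRCm38.p6.

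Of 23410 annotated probe sets, the 11705 with an interquartile range above the median entered a two-sided comparison of the groups by lmFit and eBayes (limma 3.58.1, R 4.3.3), as the study's methods describe. Reading its variance cut-off as this median was a choice made here. Calls required an adjusted p under 0.1 (Benjamini-Hochberg) and a fold of 1.3 or more. SEs, 95% limma intervals and unadjusted p-values of all genes come from the same fit without the filter. Adjusted p-values come from the filtered fit, or from the fit without the filter for genes that it removed. Precision is limited by the number of arrays. The procedure was tested on simulated data only with changes larger than any member difference. That test cannot show how it performs at differences as small as those of the members.

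Members, classes, pathway lists and marker lists were chosen with earlier results of these data known. Named were the highest and lowest gene of each structural class, the ATPase ring, the catalytic subunits, Psmd4, Psmd11, Psmd14, Psme3, Psme4, Psmf1, Psmb10, the core chaperones, Psmb8, Psmb9, Pomp, Adrm1, Sem1, Usp14, Uchl5, Nfe2l1 and any called gene. Other genes were named afterwards, for their values or to complete a class. Deviations from the group means were correlated between arrays of the same replicate number (r = 0.141, 0.646 and 0.655 for numbers 1, 2 and 3), although control replicate 1 correlated more with knockdown replicate 2 (0.202). The numbers come from the labels and were treated as pairs in an alternative fit. Other alternatives were no filter, unannotated rows included, arrays centred on their medians, an intensity trend, no fold requirement, the mean of all probe sets of a gene, and each array left out.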

Additional observations from a re-analysis of the deposited data

How the results depend on the processing

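Every alternative except the mean of all probe sets of a gene was run for the calls. The fit without the filter covered all 46 proteasome and 38 pathway genes, while the filter of the main fit kept 11 and 16. Under each alternative limma called 0 proteasome genes and 0 pathway genes, higher or lower. This holds for the replicate block (0 and 0), which changed no call, and for leaving out each array in turn (0 to 0). No member difference reached 1.3-fold (0.38) under any setting, the largest being 0.34 for Psmd6 without control replicate 3. Settings that required the fold could therefore call no member, and their 0 does not show stability. With the block, 2 members had a limma adjusted p under 0.1 whatever their fold, where 9.34% of all probe sets were higher. At an unadjusted p under 0.05 6 members were higher (13.0%, against 5.33% of all genes) and 1 lower (2.17%, against 5.8%). The median difference of the ATPase ring ranged from 0.0998 to 0.215 when single arrays were left out, and the lowest value came without Dali knockdown replicate 3. The core median ranged from 0.0139 to 0.0611 and the lid median from 0.0335 to 0.104, both lowest without control replicate 2. With centred arrays the medians were 0.203 for the ring, 0.0675 for the core and 0.101 for the lid, beside 0.0457 over all genes in place of 0.0157. Signs of differences near 0 turned under at least 1 alternative for 13 members (Psma1, Psma5, Psma6, Psma7, Psma8, Psmb10, Psmb11, Psmd3, Psmd4, Psmd7, Psmd9, Psme2 and Psmg4) and for 12 of the 38 pathway genes, Nfe2l1 among them. With 3 arrays a group, the cause of none of these shifts was tested.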
